A study of Mus musculus with 2 samples.

Results

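The genes of 10 mouse histone deacetylases were examined for Sap130 peaks in the embryonic heart. They are Hdac1, Hdac2, Hdac3 and Hdac8 of class I, Hdac4, Hdac5, Hdac7 and Hdac9 of class IIa, Hdac6 of class IIb and Hdac11 of class IV. Class IIb is represented by Hdac6 alone, and other genes of that class were not analysed here. A peak was taken as theirs when the gene annotation of the authors' peak table equalled the gene's symbol, so the choice used names and no measured value. By this rule 16 of 16697 peaks belonged to 9 of the 10 genes, and Hdac4 had no named peak. The data are 2 libraries from ChIP-seq (sequencing of immunoprecipitated chromatin), both of heart tissue from wild-type B6 mouse embryos, with no transgene or treatment given for either. One was precipitated with a rabbit antibody to Sap130 and labelled E13.5, an embryonic day, and the other was input chromatin labelled E13.6. The authors' table lists regions where the ChIP library stood above the input, and the table used here gives no read counts, peak heights or p-values, so depth and the precision of each peak are unknown. With 1 library of each kind there was no replicate, and every comparison below is a description with no test. The tissue is a mixture of cell types, and which cells carried a peak cannot be told apart.

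Histone deacetylases remove acetyl groups from lysines of histone tails and of other proteins, which at histones is associated with compact chromatin and lower transcription. Class I enzymes are mostly nuclear, and Hdac1 and Hdac2 are the catalytic subunits of the Sin3, NuRD and CoREST complexes, whereas Hdac3 works in a separate corepressor complex. Sap130 is a subunit of the Sin3 complex and is not known to bind a DNA sequence by itself. Class IIa enzymes have weak deacetylase activity, bind the MEF2 transcription factors, and move between nucleus and cytoplasm when kinases phosphorylate them and 14-3-3 proteins hold them. In mice, loss of Hdac1 and Hdac2 together in the myocardium is lethal soon after birth, and Hdac5 and Hdac9 are known as brakes on cardiac growth. Hdac6 is a cytoplasmic enzyme that deacetylates tubulin, and Hdac11 is the sole member of class IV.

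Start region sequences show how differently the peaks met these genes. Each line below is 300 bases of RefSeq sequence (build GRCm38.p6, the same chromosome sequences as mm10), 250 before and 50 from the start site on, written 5′ to 3′ on the gene's own strand. Capitals mark bases inside a Sap130 peak. Hdac2 and Hdac8 are shown because the peak covered the whole window. The Hdac2 start is rich in the dinucleotide CpG, and the Hdac8 start has a CpG count near the median of all such windows. Hdac4 is shown because its start lay in a gap between a pair of peaks, Hdac5 for a MEF2-type motif, and Hdac9, Hdac6 and Hdac11 because a peak only reached, missed or partly covered the start.
Hdac2, chr10:36974294-36974593, plus strand: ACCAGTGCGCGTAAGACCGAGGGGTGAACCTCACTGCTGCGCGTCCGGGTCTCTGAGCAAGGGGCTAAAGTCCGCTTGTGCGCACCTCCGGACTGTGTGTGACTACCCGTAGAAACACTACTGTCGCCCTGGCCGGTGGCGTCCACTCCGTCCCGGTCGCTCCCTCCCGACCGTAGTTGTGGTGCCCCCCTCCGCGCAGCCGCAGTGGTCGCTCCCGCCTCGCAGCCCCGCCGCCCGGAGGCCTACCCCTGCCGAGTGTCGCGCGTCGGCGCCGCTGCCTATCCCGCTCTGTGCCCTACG
Hdac8, chrX:102505109-102505408, minus strand: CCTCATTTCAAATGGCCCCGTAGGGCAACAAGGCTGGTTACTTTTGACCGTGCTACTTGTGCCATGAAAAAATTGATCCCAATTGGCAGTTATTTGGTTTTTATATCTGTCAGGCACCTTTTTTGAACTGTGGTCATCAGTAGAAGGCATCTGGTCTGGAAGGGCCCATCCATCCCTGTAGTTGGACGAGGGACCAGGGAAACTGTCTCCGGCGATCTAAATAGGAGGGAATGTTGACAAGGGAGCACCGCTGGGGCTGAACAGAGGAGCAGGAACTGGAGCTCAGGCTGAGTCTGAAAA
Hdac4, chr1:92180292-92180591, minus strand: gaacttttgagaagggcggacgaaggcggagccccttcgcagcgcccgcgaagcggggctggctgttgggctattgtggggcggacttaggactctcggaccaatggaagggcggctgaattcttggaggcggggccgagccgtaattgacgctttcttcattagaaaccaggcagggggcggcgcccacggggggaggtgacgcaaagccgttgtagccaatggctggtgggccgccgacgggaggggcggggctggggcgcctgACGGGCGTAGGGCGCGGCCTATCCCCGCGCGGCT
Hdac5, chr11:102230123-102230422, minus strand: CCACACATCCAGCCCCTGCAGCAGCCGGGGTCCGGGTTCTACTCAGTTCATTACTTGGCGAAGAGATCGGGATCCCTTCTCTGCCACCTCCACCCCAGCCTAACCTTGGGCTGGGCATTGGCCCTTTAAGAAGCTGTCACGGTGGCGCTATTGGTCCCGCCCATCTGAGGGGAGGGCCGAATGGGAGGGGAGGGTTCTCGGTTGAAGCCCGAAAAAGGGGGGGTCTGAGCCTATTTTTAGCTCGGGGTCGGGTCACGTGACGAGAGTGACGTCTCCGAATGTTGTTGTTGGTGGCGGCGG
Hdac9 inner start, chr12:34528840-34529139, minus strand: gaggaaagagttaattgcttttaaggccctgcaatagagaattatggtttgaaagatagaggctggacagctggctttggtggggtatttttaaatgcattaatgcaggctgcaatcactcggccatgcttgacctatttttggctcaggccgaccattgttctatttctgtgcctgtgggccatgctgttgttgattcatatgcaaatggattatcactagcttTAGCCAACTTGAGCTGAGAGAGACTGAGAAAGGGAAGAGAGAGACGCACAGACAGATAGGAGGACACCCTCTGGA
Hdac6, chrX:7947840-7948139, minus strand: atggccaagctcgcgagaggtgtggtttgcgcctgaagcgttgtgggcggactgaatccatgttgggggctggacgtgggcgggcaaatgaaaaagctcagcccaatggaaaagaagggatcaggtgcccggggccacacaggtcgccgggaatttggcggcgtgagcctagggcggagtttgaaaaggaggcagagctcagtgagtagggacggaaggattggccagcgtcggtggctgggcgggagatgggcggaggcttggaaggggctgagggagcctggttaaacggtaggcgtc
Hdac11, chr6:91156565-91156864, plus strand: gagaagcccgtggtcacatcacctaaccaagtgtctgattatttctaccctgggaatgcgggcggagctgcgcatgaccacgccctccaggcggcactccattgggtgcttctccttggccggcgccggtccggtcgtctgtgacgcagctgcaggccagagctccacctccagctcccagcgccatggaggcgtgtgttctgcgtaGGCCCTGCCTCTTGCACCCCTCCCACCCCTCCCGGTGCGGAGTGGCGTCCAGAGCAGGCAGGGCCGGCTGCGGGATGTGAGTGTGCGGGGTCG

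The Hdac2 window held 36 CpG dinucleotides and the Hdac4 window 32. Hdac11 had 22, Hdac6 20 and Hdac5 18. Hdac8 had 6, and the inner start of Hdac9 had 3. Across 32851 RefSeq start windows of the same length the median was 7, with quartiles of 3 and 20. Hdac8 and the inner Hdac9 start carried a peak on the start site at a CpG count no higher than that median. The Hdac6 start, with 20, had no base of its window in a peak, although its peak began 69 bp past the start. Among the windows not shown, the Hdac7 starts with 35 and 31 lay in a peak. The Hdac7 starts with 6 and 5 and the outer Hdac9 start with 0 did not. The share of all windows with a peak at high or low CpG counts was not computed. Windows were available for 8 of the 10 genes and 12 start sites.

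Among the motifs searched in either orientation, the GC box GGGCGG, which SP and KLF factors bind, occurred in 6 of the 12 windows and in 35.7% of all windows. The Hdac4 and Hdac6 windows held 5 matches each, and Hdac2, Hdac5, Hdac11 and the start of Hdac7 at 97831495 held 1 each. The CCAAT box, bound by NF-Y, occurred in 5 windows, those of Hdac4, Hdac5, Hdac6, Hdac8 and Hdac11, and in 37.4% of all windows. The MEF2-type sequence CTATTTTTA lay 20 bases before the Hdac5 start and in no other window of these genes. It was found in 0.493% of all windows. The E-box CACGTG, bound by MYC and related factors, also occurred only in the Hdac5 window, 3 bases past the start (7.15% of all windows). TATAAA occurred at Hdac8 and at the outer start of Hdac9, where it lay 29 bases before the start site (13.62% of all windows). No window of these genes held the ETS motif CCGGAAG, the NRF1-type GCGCATGC, the YY1 motif AAGATGGCG, the CRE TGACGTCA or the E2F motif TTTCGCGC. These were found in 8.86%, 2.71%, 1.40%, 1.79% and 0.323% of all windows. A match describes the letters and does not show a bound site.

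Named peaks were centred within 1 kb of the start site for 9 of the 10 genes. A peak was counted as a promoter peak when the distance from its midpoint to the named transcript's start was at most 1 kb, and 11 of the 16 peaks met this. Of 20949 protein-coding genes, 50.6% had such a peak and 52.6% had any named peak. A promoter peak containing the start site itself was found for 8 of the 10 genes and for 42.7% of protein-coding genes, and Hdac4 and Hdac6 were the members without one. Positions below are the authors' own, in mm10, and may be off by 1 bp because it is not stated whether they count from 0 or 1. A midpoint is given relative to the start site in the direction of transcription. The order of the table is given as a position counted from 1 at its top. The sources used here do not state what the order follows.

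**Figure D1:**
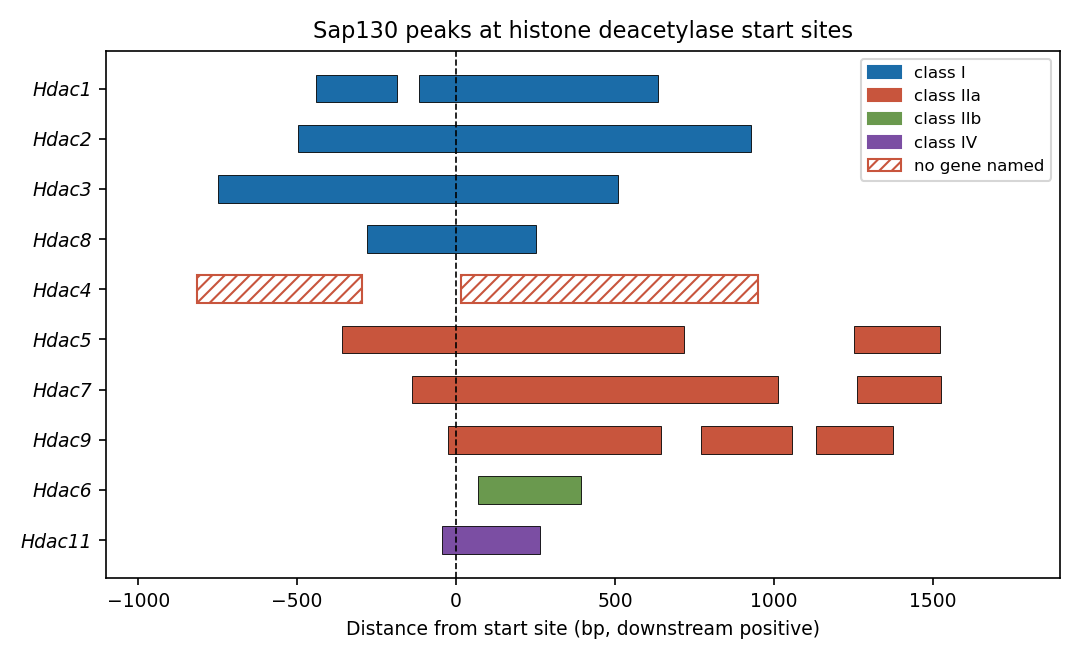
Extent of Sap130 peaks along the distance from the start site in bp, downstream positive, for the 10 genes from top to bottom by class. Filled bars are peaks named for the gene, hatched bars are peaks with no gene named, and the Hdac7 peak 5101.5 bp upstream and the Hdac9 peak 9776.5 bp downstream of their starts lie outside the range drawn. A peak crosses the start at every class I gene and at Hdac5, Hdac7, Hdac9 and Hdac11, and the Hdac4 start lies between a pair of peaks.

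All 4 class I genes had a promoter peak on the start site. Hdac2, one of the paired catalytic subunits of the Sin3 complex, had a single peak at position 6480 with a width of 1426 bp (chromosome 10, 36974047 to 36975473). It ran from 497 bp before the start site to 929 bp after it and was centred in exon 1, 216 bp downstream. This was the widest peak of the 16, as wide as or wider than 85.4% of promoter peaks in the table.

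Hdac1, the other Sin3 subunit, had a pair of promoter peaks. The earlier, of 750 bp at position 7720 (chromosome 4, 129542011 to 129542761), contained the start site at 129542646 and was centred 260 bp downstream in intron 1. The second, of 256 bp at position 12401 (129542831 to 129543087), was centred 313 bp upstream, and only 70 bp separated them. Together they reached 441 bp before and 635 bp after the start, with a break upstream of the start that the Hdac2 peak did not have. Of protein-coding genes, 7.32% had more than 1 promoter peak, and among these 10 genes Hdac1 and Hdac9 did.

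At Hdac3, the enzyme of that separate complex, the peak stood at position 6759 and was 1258 bp wide (chromosome 18, 37954479 to 37955737). Its edges lay 749 bp upstream and 509 bp downstream of the start, and it was centred 120 bp upstream. The start of Rell2, on the opposite strand, lies 571 bp away and inside this peak. A separate peak named for Rell2 (position 9977, 647 bp) began 89 bp beyond the Hdac3 peak. The Hdac3 peak thus lay on the starts of both genes, and the table names it for Hdac3 alone. Neighbouring starts were sought among the RefSeq start windows and the named starts, which do not cover every gene. Among these, Hdac3 was the one class I gene with another gene's start within 1 kb.

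Hdac8, an X-linked class I enzyme that deacetylates the cohesin subunit Smc3, had the narrowest and latest of its class when each gene's earliest promoter peak is taken. It was 530 bp wide at position 10528 (chromosome X, 102504897 to 102505427) and nearly symmetric about the start site, with 279 bp before and 251 bp after it. Its midpoint lay 14 bp upstream of the start that the table names and 4 bp upstream of the RefSeq start, which differs from it.

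Among the class IIa genes Hdac7 and Hdac9 had the most named peaks, 3 and 4, while Hdac5 had 2, as Hdac1 had, and Hdac4 none. The class had 9 of the 16 named peaks, 4 of them promoter peaks, against 5 named peaks in class I, all of them promoter peaks. All 5 member peaks beyond 1 kb belonged to Hdac5, Hdac7 and Hdac9, of which 4 lay inside the gene and 1, of Hdac7, upstream of it, and 8.05% of protein-coding genes had such a named peak. Of gene names in the table, 5.94% had 3 or more named peaks, as Hdac7 had, and 1.95% had 4 or more, as Hdac9 had. These 3 genes span 34.4 to 870 kb, and the class I genes up to 221 kb.

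Hdac5, a signal-responsive repressor of MEF2 targets in heart muscle, had the earliest named peak of the 10 genes, at position 5149 (chromosome 11, 102229454 to 102230532). This peak was 1078 bp wide, contained the start site at 102230172 and was centred 179 bp downstream in intron 1. A narrow second peak of 272 bp at position 14997 (102228649 to 102228921) lay 533 bp further into intron 1. Another 5 peaks inside the gene carried no gene name. The widest, of 946 bp at position 4965 (102218259 to 102219205), lay in intron 2, 11.4 kb downstream of the gene start, so it stood earlier in the table than the promoter peak. The other 4 were 269 to 407 bp wide. A pair lay in intron 3, at 12.6 and 13.63 kb, and the others in exons 4 and 11, at 23.2 and 25.6 kb. No other gene of the 10 had as many peaks inside its span. Peaks inside the spans of genes beyond these 10 were not counted.

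Hdac7, a class IIa enzyme with a role in endothelial integrity in mice, has 4 RefSeq start sites, and its promoter peak lay at an inner pair. The peak at position 8062, 1151 bp wide (chromosome 15, 97830754 to 97831905) contained the starts at 97831767 and 97831495, which are 272 bp apart. It was centred 437.5 bp downstream of the first of these, which the table names, and 165.5 bp downstream of the second. A second peak of 263 bp (position 13731, 97830242 to 97830505) followed after 249 bp. The outermost start, at 97844502, had no peak centred within 1 kb, and the third named peak (position 15050, 397 bp, 97849405 to 97849802) was centred 5101.5 bp upstream of it. The innermost start, at 97814863, had no peak within 1 kb either. The windows of the starts inside the peak held 35 and 31 CpG dinucleotides, and those of the outermost and innermost starts 6 and 5. The window with 35 had 62.7% of its bases in the peak and the window with 31 had 100%. They overlap by 28 bp.

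Hdac9, whose loss in mice sensitises the heart to hypertrophic signals, also had its promoter peaks at an inner start. This start, at 34528889, lies 388206 bp inside the gene and belongs to a transcript of 12 exons, against 28 for the transcript from the outermost start. The peak at position 13926, 669 bp wide (chromosome 12, 34528245 to 34528914) reached just 25 bp upstream of the start and 644 bp downstream. A run of 2 narrower peaks followed after gaps of 126 and 76 bp. They were 287 bp wide (position 15461, 34527832 to 34528119) and 241 bp wide (position 13111, 34527515 to 34527756), and were centred 913.5 and 1253.5 bp downstream, just inside and just outside the 1 kb limit. At the outermost start, 34917095, no peak was centred within 1 kb. The nearest named peak, of 319 bp (position 10461, 34907159 to 34907478), lay 9776.5 bp downstream in intron 2, and an unnamed peak of 230 bp (position 14580, 34906747 to 34906977) lay beside it. The outermost window held 0 CpG dinucleotides.

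**Figure D2:**
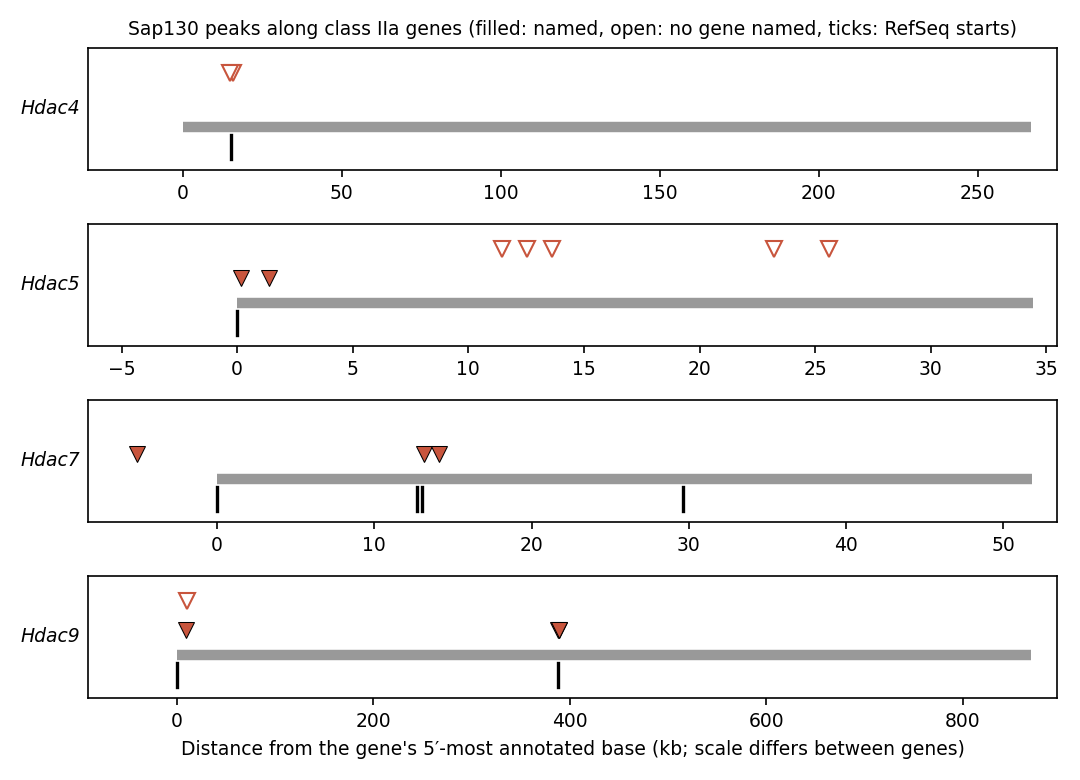
Sap130 peaks along the 4 class IIa genes, by distance in kb from the gene's outermost annotated base, with the scale differing between genes. Filled triangles are peak midpoints named for the gene, open triangles those with no gene named, grey bars the gene span and ticks the RefSeq start sites; the 3 inner Hdac9 peaks overlap at this scale. Hdac5 has 5 open triangles between 11.4 and 25.6 kb, and in Hdac7 and Hdac9 the promoter peaks sit at inner ticks.

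Hdac4, a class IIa enzyme best known for restraining chondrocyte hypertrophy in mice, had no named peak, but peaks lay on both sides of its RefSeq start site at 92180341. The downstream one was 934 bp wide at position 4027 (chromosome 1, 92179391 to 92180325) and ended 16 bp short of the start. The upstream one was 519 bp wide at position 7687 (92180638 to 92181157) and ended 297 bp before it. Their midpoints lay 483 bp downstream and 556.5 bp upstream, and the gap of 313 bp between them held the start. Neither carried a gene name. The outermost base of the gene in the RefSeq table lies 15.8 and 14.8 kb from these midpoints. Every named peak of the table lies within 10 kb of its transcript's start, and the transcript model of Hdac4 that the authors used is not among the columns, so whether that limit left the peaks unnamed was not tested. Of 1526 unnamed peaks, 193 (12.6%) were centred within 1 kb of a RefSeq start of a protein-coding gene. Counted by RefSeq starts where these were available, whatever the peak's name, 10 of 10 genes had a peak centred within 1 kb of a start. Hdac1 and Hdac3 had no RefSeq start window and were counted here by their named promoter peaks. Of 16782 protein-coding genes with a RefSeq start window, 55.9% had a peak centred within 1 kb of one.

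Hdac6, the tubulin deacetylase, had a single peak, 324 bp wide and at position 12816 (chromosome X, 7947496 to 7947820). It was centred in exon 1, 231 bp downstream, and its near edge lay 69 bp past the start site at 7947889, so the start was not in the peak. The start of Gm39488, on the opposite strand, lies 256 bp away and was in no peak. Hdac11, of class IV, had a single peak, 306 bp wide and at position 8001 (chromosome 6, 91156772 to 91157078). It contained the start site at 91156815, with 43 bp before and 263 bp after it, and was centred 110 bp downstream in intron 1. This width was equal to or above that of 11.3% of promoter peaks, and that of Hdac6 was equal to or above 12.8%. Yet the Hdac11 peak stood earlier in the table than the wider peaks of Hdac7, Hdac8 and Hdac9.

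**Figure D3:**
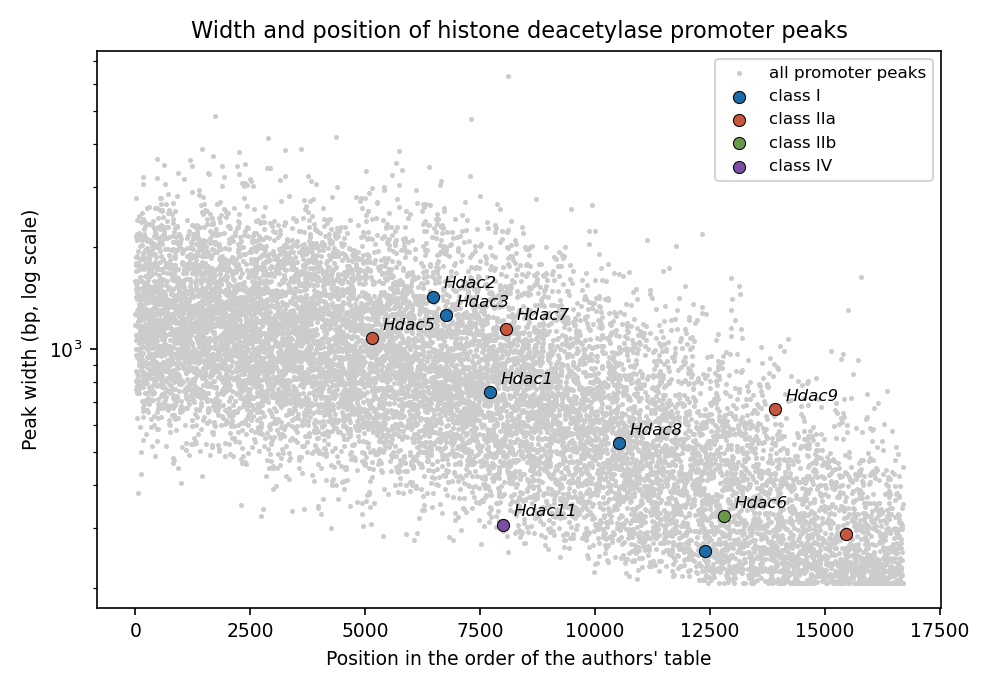
Width in bp (log scale) of promoter peaks against their position in the authors' table, with all 12760 promoter peaks in grey and the 11 peaks of the deacetylase genes coloured by class. Names mark the earliest promoter peak of each gene. The Hdac11 peak (306 bp at position 8001) is wider than 1.93% of the promoter peaks within 500 positions of it, and the Hdac9 peak (669 bp at position 13926) wider than 94.0%.

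Widths fall along the table, so each gene's earliest promoter peak was also set beside the promoter peaks within 500 positions of it. This comparison was added once the widths were known. Hdac9 was wider than 94.0% of 496 such neighbours, whose median was 307 bp. Hdac2, Hdac7 and Hdac3 were wider than 86.3%, 81.6% and 81.0% of theirs. Hdac5, Hdac8 and Hdac1 lay near the middle, at 60.4%, 50.5% and 45.5%, and Hdac6 stood at 36.7%. Hdac11 was wider than 1.93% of its 831 neighbours, whose median was 761 bp. Hdac11 thus had the narrowest peak for its place in the table among the 9 genes and Hdac9 the widest.

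Set side by side by class, widths and positions overlapped between class I and class IIa. Taking the earliest promoter peak of each gene, widths were 530 to 1426 bp in class I (median 1004, 4 genes) and 669 to 1151 bp in class IIa (median 1078, 3 genes), against 324 bp for Hdac6 and 306 bp for Hdac11. The median over all 11011 gene names with a promoter peak was 855 bp. Positions ran from 6480 to 10528 in class I (median 7239.5) and from 5149 to 13926 in class IIa (median 8062). Midpoints relative to the start ran from 120 bp upstream to 260 bp downstream in class I and from 179 to 437.5 bp downstream in class IIa, where the upper value is that of Hdac7 from the start the table names, and of these genes only Hdac3 and Hdac8 were centred upstream. Of all promoter peaks, 78.3% were centred downstream. With 4 and 3 genes from 1 library, no difference between the classes was tested.

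None of the 9 genes had a named promoter peak before position 5149, although the unnamed peak just downstream of the Hdac4 start stood at 4027. The 9 genes' earliest promoter peaks had a median position of 8001, against 5947 over all gene names with a promoter peak, and 43.7% of those names came before the first of the 9. Among the first 8348 positions lay 6 of the 9, and 67.4% of all such names, so on this count they were close to the background.

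The sirtuin genes and the genes of proteins that work with these enzymes also carried promoter peaks. The median position of each list was earlier than that of the 9 genes. Positions overlapped with those of the 9 genes in every list but the MEF2 factors. Only 2 MEF2 genes had a promoter peak, at 969 and 2106, both before the first of the 9. Their counts are to be read beside the 50.6% of all protein-coding genes. Of the sirtuins, the NAD-dependent deacetylases of class III, 6 of 7 had a promoter peak, with positions from 1012 (Sirt7) to 16198 (Sirt4) and a median of 2479. The peak named for Sirt5 was centred 4982.5 bp upstream of the start that the table names, although a peak was centred within 1 kb of a RefSeq start of it. Of the NuRD subunits, partners of Hdac1 and Hdac2, 10 of 11 had one, with positions from 226 (Gatad2a) to 9976 (Mta3) and a median of 2788.5. Gatad2b had no named peak, although a peak not named for it was centred within 1 kb of a RefSeq start of it.

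Of the CoREST and MiDAC partners, 6 of 7 had a promoter peak, with positions from 1395 (Dnttip1, a MiDAC subunit) to 9452 (Trerf1) and a median of 3159. The nearest peak named for Rcor2 was centred 1091.5 bp upstream, although a peak was centred within 1 kb of a RefSeq start of it.

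For class IIa, 11 of 12 genes of kinases and 14-3-3 proteins that control its export from the nucleus had a promoter peak, with positions from 370 (the 14-3-3 gene Ywhab) to 10210 (the kinase gene Camk4) and a median of 4509. Sfn was the exception, with its nearest peak 2440.5 bp downstream. Of the 4 MEF2 factors that class IIa enzymes bind, Mef2d (position 969, 2066 bp) and Mef2a (2106, 2141 bp) had a promoter peak, and Mef2b and Mef2c had no named peak and none centred within 1 kb of a RefSeq start. Mef2d had 5 named peaks in all.

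**Figure D4:**
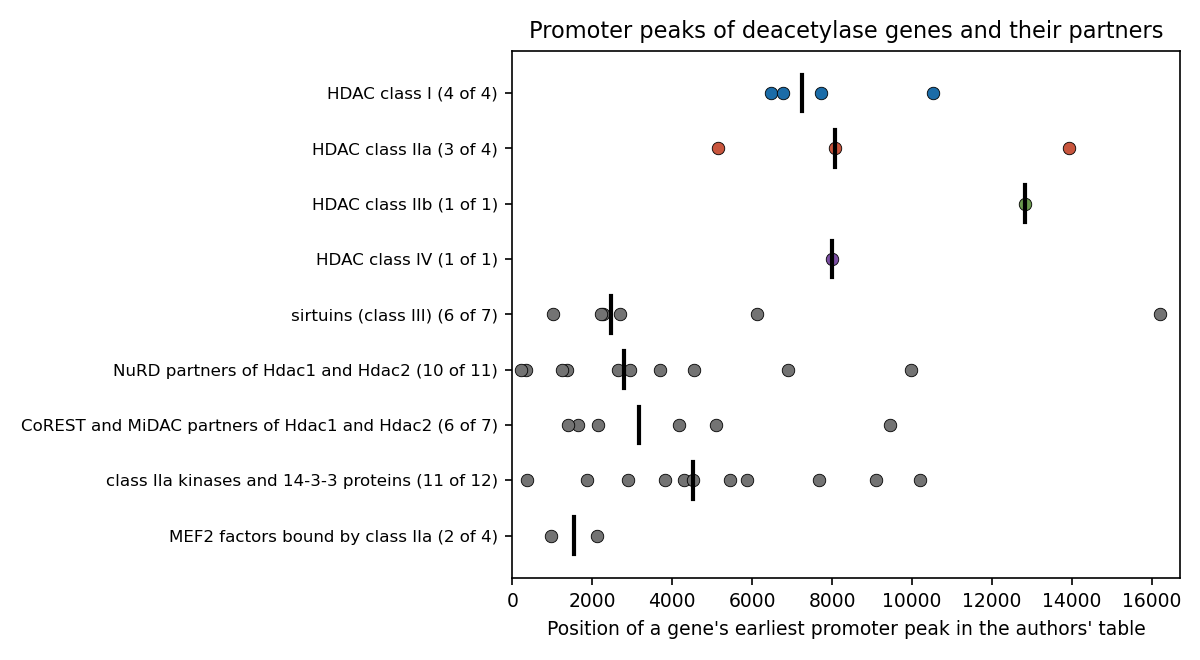
Position in the authors' table of the earliest promoter peak of each gene, for the deacetylase classes in colour and for the sirtuins and lists of partner genes in grey. Each point is 1 gene, the black bar is the median of the list, and the counts beside the names give how many genes had a promoter peak. The 9 deacetylase genes lie at 5149 or later, while each grey list has a median below that, with single genes as late as 16198.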

How the data were processed

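The authors deposited 1 peak table, made from 1 Sap130 ChIP library against 1 input library of embryonic mouse heart. Tools listed in the submitters' processing notes are Bowtie 1.1.2, a program for aligning reads, and MACS2 2.1.0.20140616, one for calling peaks, with the builds GRCm38 and mm10. Thresholds, duplicate handling, region filters and the step that named genes were not given in the sources used here, and each can change which peaks exist, their width and their names. Per the file headers, the deposited values are a row number and peak positions. Unnamed columns hold the transcript named for a peak.

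The start site was the transcript start plus 1 on the plus strand and the transcript end plus 1 on the minus strand. So computed, 37.4% of transcripts began at the 5′ end of their gene in the RefSeq table, whose spans cover all transcripts. Width is end minus start. Genes were linked by accession, then symbol, then synonym. Start windows came from the RefSeq table of GRCm38.p6. Their strand was checked on 392 minus-strand starts, of which 392 had ATG at the coding start. The distance calculation was tested on simulated data.

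The members and lists were chosen with earlier results of these data known. All 10 members are named with every peak. Partners of Hdac3 are not reported here. For each other partner list the earliest gene and those without a promoter peak are named. Alternatives were other windows, containment of the start, the first 8348 positions, wide peaks, RefSeq starts, other peaks per gene and shifted peak starts. Python 3.11.15, pandas 2.3.3, NumPy 2.4.6 and matplotlib 3.10.9 were used.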

Additional observations from a re-analysis of the deposited data

Results flagged for a closer look

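Inside the spans of Hdac4, Hdac5 and Hdac9 lay 8 peaks with no gene name, which the choice of peaks by name leaves out. They were called above the input like all others in the table. Hdac5 held 5, Hdac4 2 and Hdac9 1. How often other genes hold unnamed peaks inside their spans was not counted. Those of Hdac4 flank its RefSeq start, and the widest of Hdac5 (946 bp, position 4965) stood earlier in the table than the Hdac5 promoter peak. Every named peak of the table lies within 10 kb of its transcript's start. The unnamed Hdac5 peaks were centred 11.4 to 25.6 kb from the gene's outermost annotated base, and the Hdac9 peak 10.2 kb from it. For the Hdac4 pair this distance was 15.8 and 14.8 kb. Whether that limit left these peaks unnamed was not tested.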

How the results depend on the processing

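The count of genes with a promoter peak was 9 of 10 and stayed between 6 and 10 in 7 of 8 alternatives. It was 8 when the peak had to contain the start site, 6 among the first 8348 positions, and 10 with RefSeq starts where available. With peaks at least as wide as the table's median it was 5. The share of all protein-coding genes with such a peak was not computed. The class summaries depended on taking 1 promoter peak per gene. Over all named peaks, the median width was 750 bp in class I and 319 bp in class IIa, the median position 7720 and 13731, and the median midpoint 913.5 bp downstream in class IIa. In class I that midpoint moved from 101 bp downstream to -14 bp, that is upstream, when the second Hdac1 peak was added. Of 20 alternatives, 13 left a count within 1.5 times, or a median within 1 bp, of that reported. With 1 library of each kind no replicate could be left out. No paired analysis was possible because each group holds 1 library. Peak strength could not be compared, since no depth or height is given.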
